A study of Mus musculus with 10 samples.

Results

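Expression of 10 genes for amino acid transporters of the plasma membrane was examined in inguinal white adipose tissue (iWAT), the fat pad under the skin of the groin: Slc1a4, Slc1a5, Slc3a2, Slc7a1, Slc7a2, Slc7a5, Slc7a10, Slc7a11, Slc38a1 and Slc38a2. They were taken by name, as a set put together with earlier results of these data known, and are 10 of the 33120 genes with an exon length that could receive exon reads. RNA was sequenced from C57BL/6 male mice of 2 generations, with 1 library per mouse. The F1 mice were offspring killed at 5 weeks of age, 3 from fathers on a control diet (CD) and 3 from fathers on a low-protein diet (LPD), the latter called pLPD offspring for their paternal diet. All 6 had mothers fed CD, and the 3 mice of a group had different mothers. The F0 mice were males of 10 to 12 weeks of age that ate CD (2 mice) or LPD (2 mice) themselves after weaning. All mice were wild type, so no group carried a genetic change, and the colony had been kept on CD before the experiment.

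Amino acids cross the plasma membrane through carrier proteins, and tissues that store or make much protein carry several kinds. Fat cells take up amino acids for protein synthesis, for fatty acid synthesis and for release as glutamine and alanine, and the branched-chain amino acids among them act on growth signalling through mTORC1. When an amino acid runs short, the kinase GCN2 raises translation of the transcription factor ATF4, which acts on genes for amino acid synthesis and uptake, several of the 10 transporters among them.

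The libraries held between 6351075 and 10044546 exon reads. Expression is given as counts per 1000000 exon reads (CPM) after TMM normalization across the 10 libraries, and levels of different genes are compared as CPM per kilobase of exon. A level of 3 reads, below which a gene could not be told from absent, was 0.3 to 0.468 CPM, counting error alone considered. The lowest count of any member was 19 reads, for Slc1a4 in 1 pLPD offspring, so all 10 genes were detected in every mouse and all 10 passed the filter on low counts in both generations. Markers of fat cells were present throughout, with all 8 genes of a list that includes Adipoq, Plin1 and Fabp4 read in each group and summing to between 11278 and 18849 CPM. In the F1 libraries, 60.6% to 62.3% of the reads on genes lay on exons in the offspring of CD fathers, against 51.5%, 57.1% and 58.5% in pLPD offspring 1, 2 and 3, while the F0 libraries were at 62.1% to 63.6%. RNA was extracted from whole tissue, so fewer cells of a type and less RNA per cell cannot be told apart in any value.

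One transporter dominated the reads. Slc1a5, a sodium-dependent exchanger of neutral amino acids such as glutamine, took 68.9% to 81.1% of the summed CPM of the 10 genes in each mouse. Its level per kilobase was 384 ± 59.8 (SD, n = 2) in CD-fed F0 mice, 327 ± 26.9 (SD, n = 2) in LPD-fed F0 mice, 254 ± 46.9 (SD, n = 3) in F1 mice with CD fathers and 316 ± 41.4 (SD, n = 3) in F1 mice with LPD fathers. Its ranges lay above those of every other member in all 4 groups.

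The second place was held by Slc7a10, which carries alanine, serine, cysteine and glycine and is known as a surface protein of white fat cells. Its level was 65.5 ± 3.18 (SD, n = 2) CPM per kilobase in CD-fed and 63.5 ± 14.9 (SD, n = 2) in LPD-fed F0 mice, and 55.1 ± 9.83 (SD, n = 3) and 57.8 ± 11.7 (SD, n = 3) in the F1 offspring of CD and LPD fathers. Slc3a2 and Slc38a2 followed at group means between 22.4 and 26.3 CPM per kilobase, and their ranges overlapped in every group. Slc3a2 encodes the heavy chain that brings several Slc7 carriers to the cell surface, and Slc38a2 a sodium-coupled importer of small neutral amino acids.

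Slc38a1, a close relative of Slc38a2, stood next at group means of 5.47 to 7.29 CPM per kilobase, below Slc38a2 with no overlap in any group. Slc7a1, the widely expressed importer of arginine and lysine, followed at 2.87 to 3.31. Slc7a5, a carrier of leucine and other large neutral amino acids, was at 1.87 to 2.73, and its range overlapped that of Slc7a1 in both F1 groups but not in F0. The 3 lowest were Slc1a4, which exchanges alanine, serine, cysteine and threonine, Slc7a11, which takes up cystine in exchange for glutamate, and Slc7a2, a second carrier of cationic amino acids. Their order changed with the group: by the mean, Slc7a2 was the lowest in F1 and in LPD-fed F0 mice, while in CD-fed F0 mice it lay above both others without overlap. Slc7a11 and Slc1a4 overlapped in CD-fed F0 mice and in pLPD offspring, and Slc7a11 and Slc7a2 in LPD-fed F0 mice and in the offspring of CD fathers. Relatives of the same family stood far apart in level in this tissue, Slc1a5 above Slc1a4, Slc7a10 above Slc7a5 and Slc38a2 above Slc38a1 in each group without overlap.

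**Figure D1:**
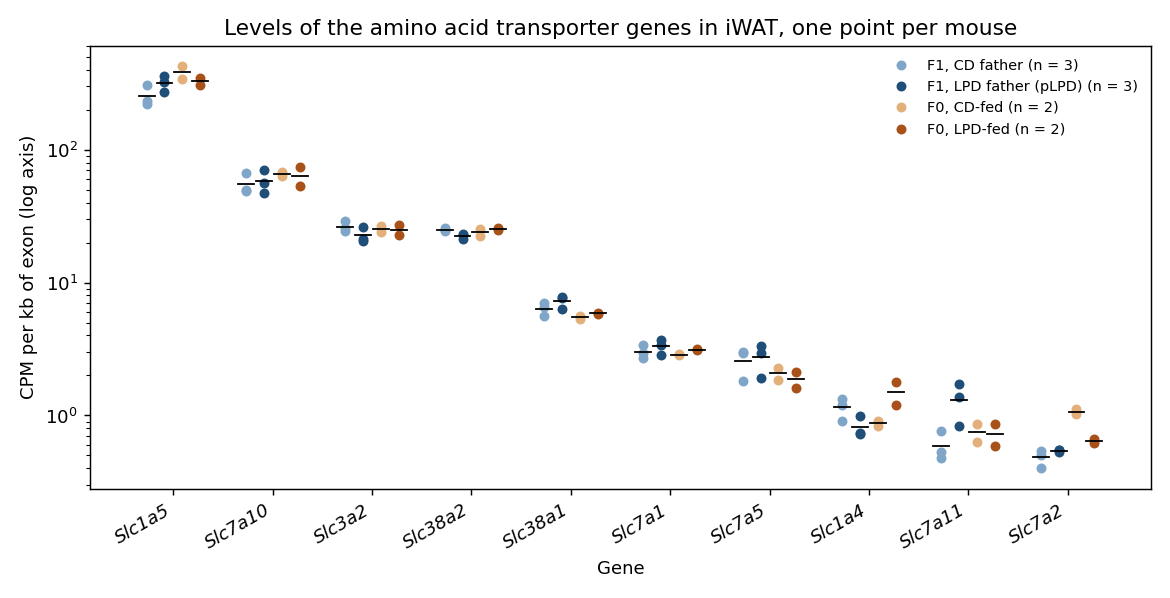
Level of each transporter gene in CPM per kilobase of exon (log axis), with 1 point per mouse, colours for the 4 groups and a black line for each group mean. Slc1a5 lies above all other genes, at group means of 254 to 384, and Slc1a4, Slc7a11 and Slc7a2 share the lowest band, where pLPD offspring are high for Slc7a11 and CD-fed F0 mice are high for Slc7a2.

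The value of Slc7a5 was uncertain. Only 31.5% of its exon reads matched that gene alone, and it lies on the opposite strand within another annotated gene, Gm20388. For Slc7a10 the share was 91.1%, and the gene overlaps Lrp3 on the other strand. The other 8 members had 98.2% or more of their exon reads unique to them. With uniquely mapped reads, Slc7a5 was at rank 9 in place of rank 7 in mean level over the 10 mice, below Slc1a4 and Slc7a11. Its log2 fold change on LPD was then −0.00 in F1 and −0.66 in F0, in place of 0.09 and −0.14, and it passed the threshold in neither generation.

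The comparison of F1 mice asked whether the diet of the father was followed by a difference in the offspring, all of which ate CD themselves. The largest difference was that of Slc7a11, the cystine carrier (ENSMUSG00000027737, mm10 chr3:49892526-50443614, minus strand), at 2.24-fold. Its levels were 6.34, 5.67 and 9.14 CPM in the offspring of CD fathers and 9.95, 16.4 and 20.6 CPM in pLPD offspring. All 3 pLPD offspring lay above all 3 offspring of CD fathers, but the lowest of them was close to the highest control. The log2 fold change was 1.16 with an SE of 0.27 and a 95% confidence interval of 0.57 to 1.76, which is an interval of 1.48 to 3.38 for the fold. The adjusted p-value was 0.0673 with edgeR's quasi-likelihood test and Benjamini-Hochberg adjustment over 14049 genes, so Slc7a11 did not pass the threshold of 0.05. The reads behind these values were few, 47 to 68 for offspring of CD fathers and 65 to 132 for pLPD offspring.

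This call depended on the analysis. Slc7a11 passed the threshold with edgeR's likelihood ratio test (adjusted p = 0.00365), with DESeq2 (0.0104) and with uniquely mapped reads (0.0454), and did not with limma-trend on RPKM, which gave a log2 fold change of 0.77 (0.209). It also passed when the third offspring of CD fathers was left out (log2 fold change 1.39, adjusted p = 0.0231) or the first pLPD offspring (1.40, 0.0376). Those mice were the highest of the controls and the lowest of the pLPD offspring, so leaving out either one widens the difference. Without any one of the other mice it did not pass, at log2 fold changes of 0.92 to 1.12 (adjusted p = 0.157 to 0.259). The first pLPD offspring, with the lowest Slc7a11 of its group, was also the library with the lowest exon share. A fit with the exon share as a covariate gave a log2 fold change of 1.82 with an adjusted p of 0.113. Among these mice the 6 macrophage markers measured were all lower in pLPD offspring, 4 of them past the threshold, against 1.17% of all genes. DESeq2 called 4 of the 6 and limma-trend 3, against 3.23% and 0.833% of all genes. Their summed levels were 352 to 421 CPM against 533 to 622 CPM, with none without reads in either group. The part of these markers in the value of Slc7a11 was not tested.

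Slc1a5, the most abundant member (ENSMUSG00000001918, mm10 chr7:16781340-16798274, plus strand), was the other gene with an unadjusted p under 0.05 in F1. Its levels were 917, 978 and 1282 CPM in the offspring of CD fathers and 1140, 1338 and 1484 CPM in pLPD offspring. The first pLPD offspring lay below the highest control, so the groups overlapped. The log2 fold change was 0.33 with a 95% confidence interval of 0.02 to 0.64 and an adjusted p of 0.299. Its relative Slc1a4 was 4.72, 3.59 and 5.24 CPM against 2.91, 2.85 and 3.9 CPM, a log2 fold change of −0.48 (interval −1.13 to 0.18, adjusted p = 0.492) with overlapping groups.

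Slc38a2 was the only member with separated groups at a lower level in pLPD offspring. Its levels were 119, 115 and 113 CPM in the offspring of CD fathers against 108, 97.6 and 105 CPM. The difference was small, with a log2 fold change of −0.15 (interval −0.32 to 0.03) and an adjusted p of 0.413. Slc38a1 differed in the other direction, at 54.6, 47.5 and 58.5 CPM against 65.8, 64.7 and 53.0 CPM, with a log2 fold change of 0.21 (interval −0.05 to 0.46) and overlapping groups. The heavy chain Slc3a2 was at 90.5, 102 and 85.6 CPM against 75.6, 73.1 and 92.3 CPM, a log2 fold change of −0.20 (interval −0.44 to 0.03). The remaining members, Slc7a1, Slc7a2, Slc7a5 and Slc7a10, had log2 fold changes of 0.08 to 0.18 and intervals on both sides of 0.

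Counted together, 7 of the 10 members were higher and 3 lower in pLPD offspring, though Slc7a1, Slc7a5 and Slc7a10 changed sign on the RPKM scale, with a median log2 fold change of 0.12 against 0.007 over all 14049 genes. With edgeR's quasi-likelihood test 0 of 10 passed the threshold, where 1.17% of all genes tested did. By the likelihood ratio test and by DESeq2 the count was 1, Slc7a11, against 4.14% and 3.23% of all genes, and by limma-trend on RPKM it was 0, against 0.833%. An unadjusted p under 0.05 was reached by 2 of the 10, both higher, against 15.3% of all genes tested. The groups did not overlap in 2 of the 10, Slc7a11 and Slc38a2, against 20.1% of all genes. An exact two-sided permutation test on 1 gene has 0.1 as its smallest p with 3 mice a group. On the RPKM scale the median log2 fold change of all genes in F1 was −0.147, in place of 0.007, which lowers fold changes taken on that scale. The 0.1 added to each RPKM value also makes the fold changes of genes at a low level smaller in size.

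In F0 the question was whether eating LPD was followed by a difference in the animals themselves. The lowest adjusted p was that of Slc7a2, the low-abundance carrier of arginine and other cationic amino acids (ENSMUSG00000031596, mm10 chr8:40862396-40922308, plus strand). Its levels were 9.29 and 10.2 CPM in CD-fed mice and 5.67 and 6.08 CPM in LPD-fed mice, with no overlap. The log2 fold change was −0.73 with an SE of 0.19 and an interval of −1.17 to −0.29, or 0.603 times the CD level (0.445 to 0.816). The adjusted p was 0.0937 over 14581 genes, so the gene did not pass. It passed with the likelihood ratio test (0.0192) and with exon and intron reads together, where the log2 fold change was −0.96 (0.0441). It did not pass with DESeq2 (0.691), with uniquely mapped reads (−0.67, 0.12) or with limma-trend on RPKM (−0.63, 0.201). Without single mice the log2 fold change was −0.79 to −0.66. A noncoding gene on the other strand, Gm26584, overlaps Slc7a2, so the intron reads may not all be its own. Intron reads were 44.7% and 45.2% of all reads on Slc7a2 in CD-fed mice and 31.6% and 37.3% in LPD-fed mice. In these mice all 7 skeletal muscle markers were lower on LPD, 5 past the threshold, against 1.32% of all genes called lower. DESeq2 and limma-trend each called 3 of the 7, against 2.2% and 0.562% of all genes. The 7 summed to 1377 to 2101 CPM on CD and 656 to 901 CPM on LPD, with none without reads in either group. All 4 markers of brown or beige fat cells were higher and past the threshold, against 1.18% of all genes called higher. Of these 4, DESeq2 called only 1 and limma-trend 0. They summed to 80.1 to 176 CPM on CD and 511 to 595 CPM on LPD. The part of both marker sets in the values of Slc7a2 and of the other members in F0 was not tested.

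Slc1a4 (ENSMUSG00000020142, mm10 chr11:20302180-20332713, minus strand) differed in the other direction, by about as much as Slc7a2. Its levels were 3.58 and 3.30 CPM in CD-fed mice and 4.73 and 7.02 CPM in LPD-fed mice, which did not overlap but spread widely on LPD. The log2 fold change was 0.76 (interval 0.13 to 1.40) with an adjusted p of 0.223, from 32 to 60 reads per mouse. Without the second LPD-fed mouse it was 0.46 and without the first it was 1.03, and neither passed the threshold. The order of these 2 genes by size turned with the analysis: with exon and intron reads together they were at 0.65 for Slc1a4 and −0.96 for Slc7a2, and with limma-trend at 0.59 and −0.63.

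Slc7a1 and Slc38a1 were separated as well, but by little. Slc7a1 was at 21.9 and 21.3 CPM on CD and 23.2 and 23.6 CPM on LPD, and Slc38a1 at 47.3 and 44.4 CPM on CD and 49.8 and 48.9 CPM on LPD. Their log2 fold changes were 0.12 (interval −0.15 to 0.38) and 0.11 (interval −0.09 to 0.31). Slc7a11, the gene with the largest difference in F1, was at 10.2 and 7.49 CPM on CD and 10.3 and 7.02 CPM on LPD in F0, with a log2 fold change of −0.02 and an interval of −0.57 to 0.54. Slc1a5 was at 1426 and 1779 CPM on CD and 1284 and 1443 CPM on LPD, with a log2 fold change of −0.23 (interval −0.58 to 0.11). Slc3a2, Slc7a5, Slc7a10 and Slc38a2 had log2 fold changes of −0.14 to 0.09 with overlapping groups.

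In F0, 4 members were higher and 6 lower on LPD, with a median log2 fold change of −0.02 against 0.0 over all genes. The quasi-likelihood test called 0 of 10, where 2.5% of all genes tested were called. The likelihood ratio test called 1, Slc7a2, against 6.74% of all genes, and DESeq2 and limma-trend called 0, against 2.2% and 0.562%. An unadjusted p under 0.05 was reached by 2 members, Slc1a4 (higher) and Slc7a2 (lower), against 15.7% of all genes tested. The 2 groups did not overlap in 4 members, against 46.5% of all genes at 2 mice a group. With 2 mice a group the smallest exact permutation p is 0.333.

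**Figure D2:**
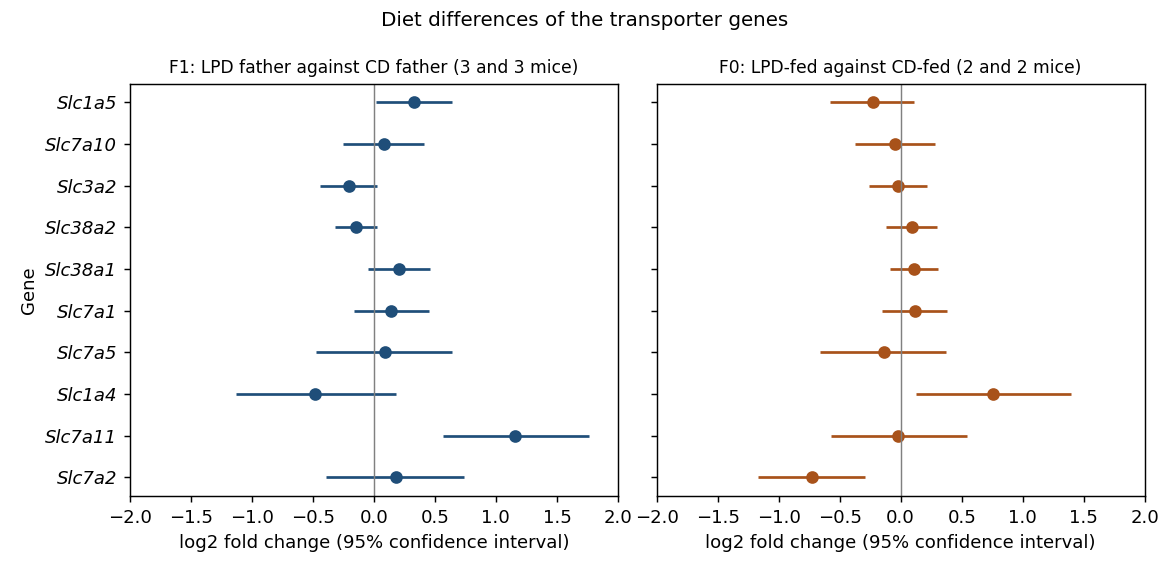
Log2 fold change of each gene (points) with its 95% confidence interval (lines), LPD against CD, for paternal diet in F1 (left) and for the diet eaten in F0 (right), with genes in order of level. Intervals that leave out 0 are those of Slc1a5 and Slc7a11 in F1, at 0.33 and 1.16, and of Slc1a4 and Slc7a2 in F0, at 0.76 and −0.73, and none of the 4 passed the adjusted threshold.

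**Figure D3:**
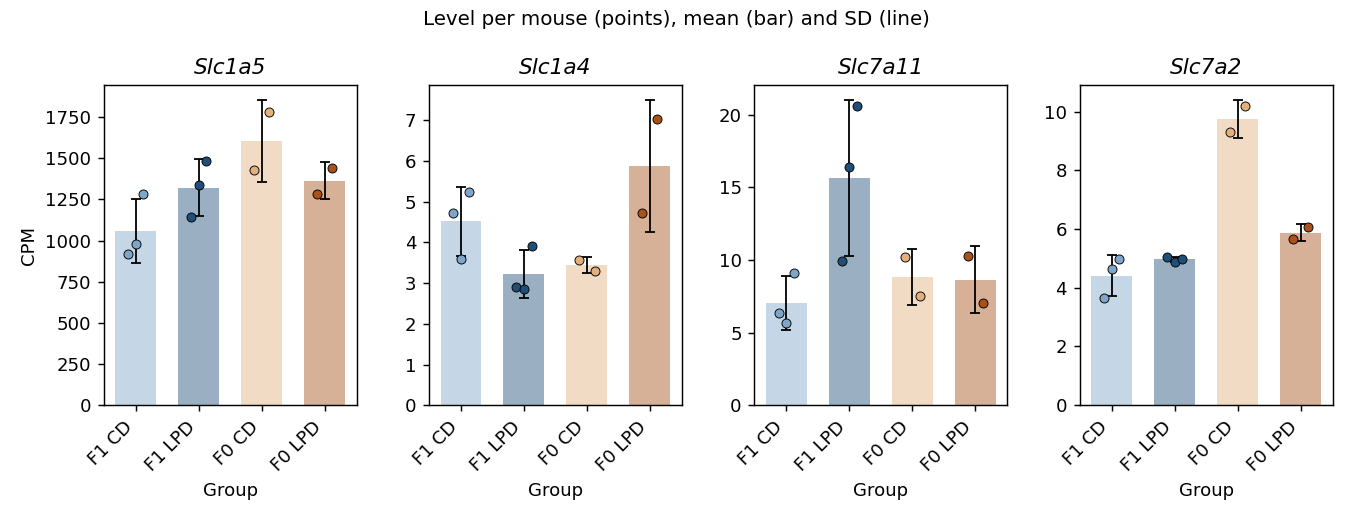
CPM of the 4 genes with an unadjusted p under 0.05 in either generation, with points for mice, bars for group means and lines for the SD, and each panel with its own axis from 0. pLPD offspring reach 20.6 CPM for Slc7a11, where the other groups lie between 5.67 and 10.3, and CD-fed F0 mice stand at 9.29 and 10.2 for Slc7a2, where the other groups lie between 3.64 and 6.08.

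Whether the diet difference itself differed between the generations was tested as an interaction over the 10 libraries. The difference is given as the F0 log2 fold change minus that of F1. For Slc1a4 it was 1.25 (interval 0.35 to 2.15, adjusted p = 0.192), with the gene at a higher mean on LPD in F0 and at a lower mean in pLPD offspring. Slc7a11 was at −1.17 (interval −2.09 to −0.25, adjusted p = 0.247), Slc7a2 at −0.90 (interval −1.55 to −0.25, adjusted p = 0.196) and Slc1a5 at −0.55 (interval −1.04 to −0.06, adjusted p = 0.318). These 4 genes had an unadjusted p under 0.05, against 12.5% of the 15111 genes tested. By the quasi-likelihood test 0 of 10 passed the threshold, where 1.25% of all genes did, and the likelihood ratio test, DESeq2 and limma-trend also called 0, where they called 3.61%, 2.53% and 0.49% of all genes. Generation, age and library set coincide, so they cannot be told apart in any of these differences.

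The promoters of the members were searched for the core of the amino acid response element, at which ATF4 is known to bind with C/EBP partners. RefSeq promoters of 300 bases (250 before to 50 after the start of transcription, build GRCm38.p6) were at hand for 6 of the 10 members, in 7 promoters. Those of Slc1a5, Slc7a2, Slc7a5 and Slc38a1 were not searched. Both strands were read for TGATGNAA, where N is any base. Of 32851 promoters of this length, 3.97% held the core at least once and 0.07% held it 2 or more times. Slc7a11 held it once on each strand, at bases 185 to 192 and 204 to 211 of its window, and Slc1a4 held it on the opposite strand at bases 247 to 254, across the start. No match was found in the windows of Slc3a2, Slc7a1, Slc7a10 and Slc38a2. The stretches around the matches of these 2 genes are shown for the place of the core, which is in capitals, on the strand of the gene (the minus strand for both), at chr3:50443614-50443728 for Slc7a11 and chr11:20332699-20332833 for Slc1a4.
Slc7a11: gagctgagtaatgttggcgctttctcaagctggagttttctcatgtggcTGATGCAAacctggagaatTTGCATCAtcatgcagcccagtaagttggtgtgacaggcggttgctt
Slc1a4: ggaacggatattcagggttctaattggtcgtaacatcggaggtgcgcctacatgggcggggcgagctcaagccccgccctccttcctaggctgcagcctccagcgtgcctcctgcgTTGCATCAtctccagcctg
A match is a description of letters and was not a test of binding. In F1 the gene with both cores was at a higher mean in pLPD offspring and the gene with a single core at a lower mean, with log2 fold changes of 1.16 and −0.48, while in F0 they were −0.02 and 0.76.

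The other genes of the amino acid response were examined beside the members. Of a list of 40 genes that includes ATF4 and genes it is known to act on, 38 were tested in F1, where 0 passed the threshold with the quasi-likelihood test, 4 with the likelihood ratio test, 2 with DESeq2 and 0 with limma-trend. Over all genes tested the shares were 1.17%, 4.14%, 3.23% and 0.833% with these tests in the same order. At an unadjusted p under 0.05, 5 of the 38 were higher, against 6.57% of all genes, and 6 lower, against 8.76%, and the median log2 fold change was 0.08, against 0.007. For Atf4 the levels were 78.9 ± 11.1 (SD, n = 3) CPM under paternal CD and 81.9 ± 3.58 (SD, n = 3) CPM under paternal LPD. Asns, which makes asparagine and is the usual example of an ATF4 target, was at 48.8 ± 6.51 (SD, n = 3) and 56.2 ± 10.1 (SD, n = 3) CPM, with a log2 fold change of 0.21 (interval −0.09 to 0.51).

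In F0, 39 genes of the same list were tested, and 3 passed the threshold higher on LPD and 1 lower, against 1.18% and 1.32% of all genes tested. The likelihood ratio test called 7, against 6.74% of all genes, DESeq2 called 5, against 2.2%, and limma-trend 1, against 0.562%. Sesn2, a leucine sensor that restrains mTORC1, rose from 19.4 and 14.0 CPM on CD to 32.5 and 46.2 CPM on LPD, a log2 fold change of 1.24 (interval 0.79 to 1.69, adjusted p = 0.0191). Cebpb, a transcription factor of fat cell formation that is also induced by amino acid shortage, rose from 80.3 and 78.3 CPM to 119 and 113 CPM (log2 fold change 0.55, adjusted p = 0.0186), though only 35.8% of its exon reads were unique to it. Vldlr, a lipoprotein receptor, rose by 0.51 (adjusted p = 0.0464). Gpt2, the mitochondrial enzyme that interconverts alanine and pyruvate, fell from 213 and 260 CPM on CD to 108 and 106 CPM on LPD, a log2 fold change of −1.14 (adjusted p = 0.00373). Neither Atf4 (log2 fold change 0.18, interval −0.04 to 0.40) nor Asns (0.03, interval −0.31 to 0.36) passed the threshold. The call of Vldlr was close to the threshold. Vldlr did not pass with exon and intron reads together (0.50, adjusted p = 0.0601) or with all 4 groups in 1 fit (0.50, 0.154). The calls of Sesn2, Cebpb and Vldlr depended on the analysis. Limma-trend on RPKM called none of these 3, and they were lost without the second CD-fed mouse (log2 fold changes 1.02, 0.53 and 0.46, adjusted p = 0.0511, 0.0759 and 0.220) or the second LPD-fed mouse (0.97, 0.59 and 0.38, adjusted p = 0.0688, 0.0512 and 0.203). Without the first CD-fed mouse, Cebpb (0.57, adjusted p = 0.0521) and Vldlr (0.55, adjusted p = 0.111) were lost and Sesn2 was not. Gpt2 passed with each mouse left out in turn and with limma-trend.

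Other transporters of the plasma membrane made a second list of 29 genes, of which 16 were tested in F1 and 17 in F0. In F1, 0 passed the threshold with the quasi-likelihood test, 1 with the likelihood ratio test, 0 with DESeq2 and 0 with limma-trend. In the same order, these tests called 1.17%, 4.14%, 3.23% and 0.833% of all genes. An unadjusted p under 0.05 was reached by 1 gene in F1, lower in pLPD offspring, against 8.76% of all genes. In F0, Slc6a6, the taurine transporter, fell from 249 and 268 CPM on CD to 186 and 153 CPM on LPD, with a log2 fold change of −0.61 (interval −0.87 to −0.35, adjusted p = 0.0351). It was the only gene of the 17 past the threshold with this test, against 2.5% of all genes, where the likelihood ratio test called 3 (6.74% of all genes), DESeq2 called 2 (2.2%) and limma-trend 0 (0.562%). Slc6a6 did not pass with limma-trend (−0.67, adjusted p = 0.0656), with exon and intron reads together (−0.33, 0.123), or without the first CD-fed (−0.66, 0.0753), the second CD-fed (−0.55, 0.146) or the second LPD-fed mouse (−0.47, 0.121). The summed level of the 29 genes was 812 to 1151 CPM across the 10 mice, below the 1331 to 2195 CPM of the 10 members in each group.

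Of 32 genes of lysosomal amino acid transport and of amino acid sensing by mTORC1, 31 were tested in each generation. In F1, 0 passed with the quasi-likelihood test, the likelihood ratio test, DESeq2 or limma-trend, which called 1.17%, 4.14%, 3.23% and 0.833% of all genes. An unadjusted p under 0.05 was reached by 3, against 15.3% of all genes. In F0, Sesn2, which is on this list too, was the 1 gene past the threshold, against 2.5% of all genes. The likelihood ratio test called 2, DESeq2 1 and limma-trend 0, against 6.74%, 2.2% and 0.562% of all genes. The median log2 fold change of the list in F0 was −0.05.

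The lists of glutathione synthesis and of glutamine and serine use cover what the carried amino acids are used for. Slc7a11 supplies the cysteine of glutathione. Of 11 tested genes of the glutathione list, 0 passed the threshold in either generation with the quasi-likelihood test, where 1.17% of all genes in F1 and 2.5% in F0 did. In F1, 6 of the 11 were lower in pLPD offspring at an unadjusted p under 0.05, against 8.76% of all genes. The likelihood ratio test and DESeq2 each called 1 in F1, against 4.14% and 3.23% of all genes, and limma-trend 0, against 0.833%. In F0, 4 had an unadjusted p under 0.05, against 15.7% of all genes. There the likelihood ratio test called 2, DESeq2 0 and limma-trend 0, against 6.74%, 2.2% and 0.562% of all genes. The most abundant gene of the list, Gpx4, which uses glutathione to remove lipid peroxides, was at 649, 636 and 566 CPM in the offspring of CD fathers and 477, 497 and 545 CPM in pLPD offspring (log2 fold change −0.28, adjusted p = 0.199), with only 22.2% of its reads unique. Its groups did not overlap.

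Of the 9 tested genes of glutamine and serine use, 0 passed in either generation with the quasi-likelihood test, against 1.17% (F1) and 2.5% (F0) of all genes. The likelihood ratio test called 1 gene in F1 and 1 in F0, against 4.14% and 6.74% of all genes. DESeq2 also called 1 in each, against 3.23% and 2.2%, and limma-trend called 0, against 0.833% and 0.562%. An unadjusted p under 0.05 was reached by 2 in F1 and 1 in F0, all lower, against 8.76% and 8.2% of all genes in that direction. The most abundant was Glul, which makes glutamine, at 1690 and 2245 CPM on CD and 1302 and 1079 CPM on LPD in F0, a log2 fold change of −0.72 (interval −1.12 to −0.33) and an adjusted p of 0.0731. In F1 it was at 1946, 1609 and 2081 CPM in the offspring of CD fathers and 1352, 1604 and 1859 CPM in pLPD offspring, which overlapped.

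Slc3a2 works only as a pair with a light chain, so its level was set beside those of the 6 light chains measured: Slc7a5, Slc7a10 and Slc7a11 among the members, and Slc7a6, Slc7a7 and Slc7a8. Per kilobase, the summed light chains were 2.28 to 3.50 times Slc3a2 in the 10 mice. Slc7a10 made up 74.1% to 82.9% of that sum. The ratio of light chains to Slc3a2 was 2.74 ± 0.561 (SD, n = 3) under paternal CD, 3.25 ± 0.284 (SD, n = 3) under paternal LPD, 3.15 ± 0.125 (SD, n = 2) in CD-fed and 3.11 ± 0.259 (SD, n = 2) in LPD-fed F0 mice. The ranges of the diets overlapped in both generations.

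Slc7a6, which exchanges arginine for neutral amino acids, was the second light chain at 6.26 ± 0.0194 (SD, n = 2) and 6.61 ± 0.535 (SD, n = 2) CPM per kilobase in CD-fed and LPD-fed F0 mice and 8.21 ± 0.855 (SD, n = 3) and 7.85 ± 0.276 (SD, n = 3) in F1. Slc7a7, its relative, and Slc7a8, a carrier of neutral amino acids, had group means of 1.68 to 2.05 and 2.37 to 3.56. None of the 3 passed the threshold, with log2 fold changes of −0.22 to −0.05 in F1 and −0.03 to 0.27 in F0. On all exon reads, Slc7a11 had the lowest mean of the 6 in pLPD offspring, at 1.32 ± 0.451 (SD, n = 3) CPM per kilobase. This place rests on the uncertain value of Slc7a5, which ranked below Slc7a11 over the 10 mice with uniquely mapped reads.

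**Figure D4:**
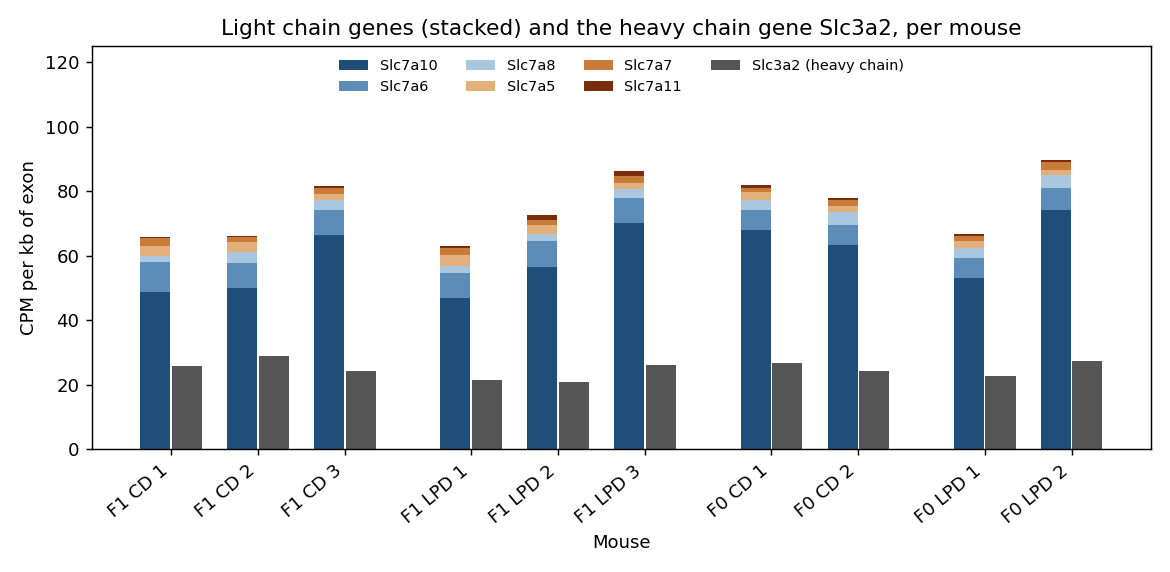
Level per kilobase of exon of 6 light chain genes (stacked bars, colours for genes) beside the heavy chain gene Slc3a2 (grey bar) in each of the 10 mice, grouped by generation and diet. Slc7a10 fills 74.1% to 82.9% of each stack, and the stack is 2.28 to 3.50 times the grey bar.

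The members also differed in how many of their reads lay in introns. For Slc7a11, introns held 49.6% to 75.4% of the reads on the gene, and for Slc7a1 57.5% to 64.9%, while for Slc1a5 the share was 12.3% to 17.3%. In F1 the intron share of Slc7a11 was 66.9%, 64.0% and 66.7% in the offspring of CD fathers and 68.1%, 57.1% and 49.6% in pLPD offspring. The 2 pLPD offspring with the highest exon level of Slc7a11 had the lowest intron shares, and the first, with the lowest level, had the highest share. With exon and intron reads together, its log2 fold change in F1 was 0.81 (adjusted p = 0.0949) against 1.16 on exon reads. Other annotated genes on both strands overlap the span of Slc7a11, so the intron reads may not all be its own. For Slc7a10, which overlaps Lrp3, introns held 31.4% to 52.9% of the reads.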

How the data were processed

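RNA-seq libraries from the iWAT of 10 mice were analysed, 6 of F1 and 4 of F0. The authors mapped paired reads of 36 bases to mm10 and counted them per Ensembl gene in CLC Genomics Workbench 9.5.1, and the strand setting of the counting is not given in the sources used here. The deposited counts are whole numbers of exon and intron reads per gene, not normalized. The deposited RPKM values are the authors' exon reads per kilobase of exon and per 1000000 reads of the library, and the deposited TPM values are rescaled to a fixed sum per library. Total exon reads were tested in R 4.3.3 with edgeR 4.0.16 (filterByExpr, TMM, quasi-likelihood F test, two-sided, Benjamini-Hochberg adjustment over all genes tested, threshold 0.05), in a separate fit for each generation and with an interaction term over all 10 libraries. The test was also run on simulated counts, with changes placed only in genes with more reads than the lowest members. That run does not bear on those members, and no support is drawn from it. Alternatives used DESeq2 1.42.0, limma 3.58.1 on log2 (RPKM + 0.1), other filters, counts and covariates, and each mouse left out. Pooled over genes, the biological coefficient of variation was 11.8% in F1 and 8.73% in F0. Between mice of a group, the variance was 4.59 to 13.1 times counting error, so no library was a copy of another. Whether F0 mice shared a litter is not given in the sources used here, so p-values measure the spread between these mice. Which father each F1 mouse had is not given either, so the F1 p-values may not measure a spread between separate fathers.

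The 10 members and the lists were chosen with earlier results of these data known, and all 10 are named whatever their values. Of 5 pathway lists, each gene past the threshold in any comparison is named, and the most abundant gene of a list with none, together with Atf4, Asns, Slc7a6, Slc7a7 and Slc7a8. Of 10 marker lists, those whose genes passed the threshold beside a member are given. Promoter sequences and starts are from RefSeq, build GRCm38.p6. TPM values served only for the order of levels.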

Additional observations from a re-analysis of the deposited data

Results flagged for a closer look

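Of 39 genes tested of the amino acid response list, 2 had a diet difference that differed between the generations, against 1.25% of all 15111 genes. This was by the interaction test of edgeR's quasi-likelihood fit over 10 libraries. The likelihood ratio test called 4 of the list, DESeq2 4 and limma-trend 2, against 3.61%, 2.53% and 0.49% of all genes. For Cebpb the F0 log2 fold change exceeded that of F1 by 0.98 (95% confidence interval 0.66 to 1.29, adjusted p = 0.00945): the gene was at 186 ± 14.3 (SD, n = 3) CPM under paternal CD and 139 ± 15.4 (SD, n = 3) CPM under paternal LPD, and at 79.3 ± 1.37 (SD, n = 2) CPM on CD and 116 ± 4.68 (SD, n = 2) CPM on LPD in F0. Without single mice the difference was 0.88 to 1.03, and it missed the threshold in 1 of 10 such fits, that without the second CD-fed F0 mouse (0.96, adjusted p = 0.0735).

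For Gpt2 the difference was −1.47 (interval −1.78 to −1.15, adjusted p = 0.00266), from 147 ± 7.46 (SD, n = 3) and 184 ± 14.9 (SD, n = 3) CPM in F1 and 236 ± 33.2 (SD, n = 2) and 107 ± 1.44 (SD, n = 2) CPM in F0, and it passed in all 10 fits without a mouse. Generation, age and library set coincide in both genes and cannot be told apart.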

How the results depend on the processing

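No member passed the adjusted threshold as reported, and 1 or 2 did under some alternatives. In F1 the count was 1, Slc7a11, with the likelihood ratio test, DESeq2, no filter on low counts, uniquely mapped reads, all 4 groups in 1 fit, and the replicate number as a block with or without a length correction. It ranged from 0 to 1 without single mice. In F0 it was 1, Slc7a2, with the likelihood ratio test, no filter, exon and intron reads together, and the block with or without a length correction. For the interaction it was 2 without the filter, Slc1a5 and Slc7a11, and 0 with the block. Same-numbered mice did not deviate together (r = −0.00881 to 0.0263 in F1 and 0.0479 in F0), so the block rests on shared numbers alone. The median log2 fold change of the members was −0.04 to 0.20 in F1 and −0.08 to 0.10 in F0. The cause of these shifts was not tested.

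None of the differences whose direction changed had passed the threshold, and as reported they reached 0.29 in size within a generation, for Vldlr in F1, and 0.36 for an interaction, that of Slc7a7. On the RPKM scale the F1 log2 fold changes became −0.02 for Slc7a1, −0.07 for Slc7a5, −0.09 for Slc7a10, −0.09 for Atf4 and −0.09 for Sesn2, that of Asns in F0 became −0.03, and the interaction became 0.08 for Slc7a1 and 0.01 for Slc38a1. With exon and intron reads they became −0.10 for Slc7a2 and 0.06 for Slc6a6 in F1, 0.02 for Slc7a10, −0.16 for Asns, −0.14 for Slc7a6 and −0.09 for Slc7a7 in F0, and −0.11 for the interaction of Slc7a6. With the exon share as a covariate the F1 values became −0.32 for Slc7a5, −0.01 for Slc38a1, 0.03 for Glul, −0.23 for Sesn2 and −0.13 for Vldlr. With uniquely mapped reads Slc7a5 was at −0.00 in F1, and the ranks of Slc1a4, Slc7a11 and Slc7a5 by level were 7, 8 and 9.

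Without single mice, F1 values ran from −0.11 to 0.28 for Slc7a5, −0.08 to 0.24 for Slc7a10, −0.01 to 0.18 for Atf4, −0.05 to 0.18 for Sesn2, −0.13 to 0.05 for Slc6a6, −0.11 to 0.03 for Slc7a6 and −0.22 to 0.12 for Slc7a7. F0 values ran from −0.15 to 0.10 for Slc3a2, −0.37 to 0.04 for Slc7a5, −0.31 to 0.17 for Slc7a10, −0.33 to 0.23 for Slc7a11, −0.17 to 0.20 for Asns, −0.01 to 0.16 for Slc7a6, −0.17 to 0.65 for Slc7a7 and −0.21 to 0.14 for Slc7a8. Interactions ran from −0.11 to 0.06 for Slc7a1, −0.38 to 0.11 for Slc7a10, −0.37 to 0.00 for Asns, −0.00 to 0.20 for Atf4 and −0.08 to 0.74 for Slc7a7. In F0, leaving out a mouse leaves 1 in a group, which is then assumed to vary like the others. Slc1a4, Slc7a2, Slc7a5 and Slc7a11 had under 140 reads in every mouse, so small differences in these genes were not detectable at this depth.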
